A study of Mus musculus with 8 samples.

Results

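Cells build and repair DNA from 4 deoxynucleoside triphosphates (dNTPs), and 9 genes that make, recycle or limit these precursors are described here: Rrm1, Rrm2, Rrm2b, Tk1, Tyms, Dck, Dut, Dctd and Samhd1. They were taken by gene symbol from a table of estimated read counts, in which the transcripts of each symbol were summed. All 9 were found among 35963 symbols, and all 9 were among the 15893 genes that passed the filter on low counts. RNA came from colonic epithelial cells, released from the proximal colon of mice 4 weeks old with what the labels call CEC buffer. The 4 libraries labelled Ccna2-KO came from Ccna2 fl/fl vil-Cre mice, in which both Ccna2 alleles carry target sites for Cre recombinase and the villin promoter drives Cre in intestinal epithelium. The 4 controls came from Ccna2 fl/fl mice without Cre, which the sample labels call wild type, so both groups carry the targeted alleles. The product of Ccna2, cyclin A2, activates cyclin-dependent kinases in S phase and G2, and the comparison asks how its loss from the epithelium alters transcript levels. Whether the libraries stand for separate mice is not said in the labels; the p-values then measure only how these libraries spread, which may be technical.

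Ribonucleotide reductase turns ribonucleotides into deoxyribonucleotides and is the main source of dNTPs in dividing cells. Its large subunit is encoded by Rrm1, and its small subunit by Rrm2 in S phase or by Rrm2b, a p53 target, outside it. Thymidylate is made by Tyms or salvaged by Tk1, deoxycytidine is salvaged by Dck, and Dctd and Dut lead deoxycytidylate and deoxyuridine nucleotides towards thymidylate, while Samhd1 degrades dNTPs. In the colon most dividing cells lie in the lower crypt. The proteins SAMHD1 and RRM2 are also phosphorylated by cyclin-dependent kinases, which RNA counts do not measure.

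The libraries held between 27162083 and 34386731 estimated counts, of which 4657 to 13195 fell on the 9 genes. Levels are given as CPM, counts scaled to the same library total after TMM normalisation. Ccna2 itself did not separate the groups: the controls held 54.3, 25.9, 11.9 and 18.3 CPM and the libraries labelled Ccna2-KO 18.2, 26.6, 26.6 and 16.2 CPM (log2 fold change -0.33 ± 0.41 SE; edgeR adjusted p = 0.673). The sources used here do not name the deleted exons, and every direction below rests on the labels. Control replicate 1 stood apart from the other controls: the mean log2 CPM of 7 replication genes (Mcm2 to Mcm7 and Pcna) was 5.67 in it, 4.05 to 4.27 in the other controls and 4.87 to 5.74 in the Ccna2-KO-labelled group. The numbers in the library labels form a low set (595 to 598), with 3 controls and Ccna2-KO replicate 4, and a high set (621 to 641), with control replicate 1 and the 3 remaining Ccna2-KO replicates. No source used here explains these numbers. Fits with a term for this set are called set-adjusted, and results without control replicate 1 are given where a call depends on it. Set-adjusted, the Ccna2 change was -0.71 ± 0.30 (edgeR adjusted p = 0.133). Within the high set control replicate 1 lay above every library labelled Ccna2-KO for Ccna2, and within the low set Ccna2-KO replicate 4 lay among the controls. The epithelial marker genes (8, such as Epcam and Vil1) summed to between 18420 and 21310 CPM in the controls and 18520 and 24940 CPM in the others, and 0 were called by edgeR, DESeq2 or limma voom (1 at an unadjusted p under 0.05). Markers of mature colonocytes (4) summed to 11170 to 16340 CPM in the controls and 17310 to 20170 CPM in the others. Of these markers 0 passed in edgeR's test, 2 were higher in the set-adjusted fit and 2 passed with DESeq2. Their part in the results below was not tested.

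Ribonucleotide reductase showed the largest difference among the 9 genes, and within it the subunits moved unequally. Rrm2 was 7.22-fold and Rrm1 3.03-fold higher in the libraries labelled Ccna2-KO, while the level of Rrm2b was nearly the same in both groups. Of the 9 genes, 3 rose (Rrm2, Rrm1 and Dck) and 0 fell by edgeR's quasi-likelihood test with a threshold of 0.05 on the adjusted p, against 6.4% of all genes tested that rose and 5.71% that fell. At an unadjusted p under 0.05 the numbers were 7 and 0, against 12.7% and 13.5% of all genes. DESeq2 and limma voom each called 4 and 0 (Tk1 in addition), where they called 9.55% and 7.1% of all genes higher and 9% and 5.27% lower. Rrm2, Rrm1 and Dck had groups that did not overlap, as did 19% of all genes. The median log2 fold change was 0.93 over the 9 genes and -0.01 over all genes. Without control replicate 1, 7 of the 9 rose (all but Rrm2b and Samhd1), in a fit in which 15.1% of all genes rose. Set-adjusted, 4 rose (Rrm2, Rrm1, Dck and Tk1), against 9.29% of all genes that rose and 8.9% that fell.

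**Figure D1:**
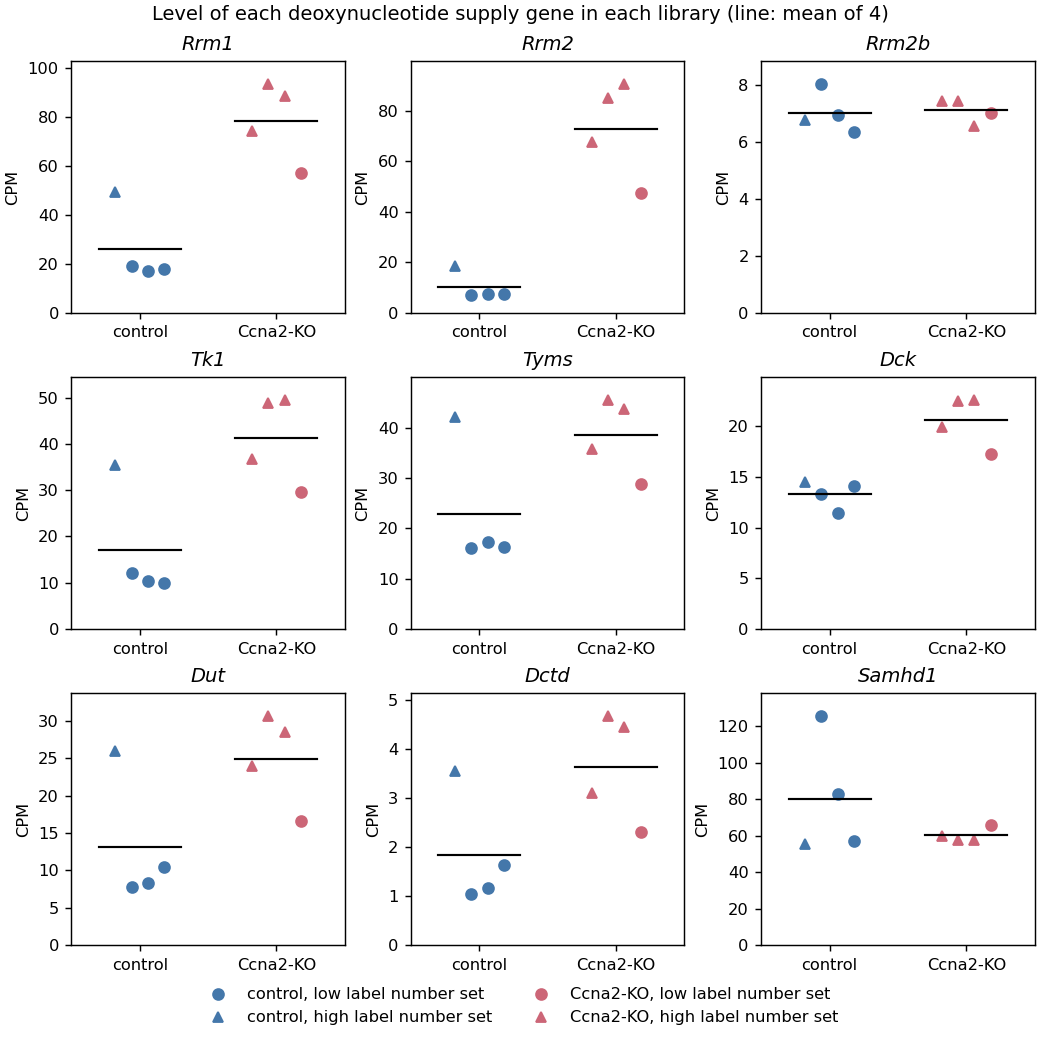
Level in CPM (vertical axis, from 0) of each of the 9 genes in each library; points are single libraries, triangles mark the high and circles the low label number set, and the line is the mean of 4. For Rrm1, Rrm2 and Dck every library labelled Ccna2-KO lies above every control; for Tk1, Tyms, Dut and Dctd only control replicate 1, the blue triangle, reaches the range of the other group.

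The small subunit gene Rrm2 (chromosome 12, 24708254 to 24714146, GRCm38) held 18.7, 6.94, 7.29 and 7.42 CPM in control replicates 1 to 4. In the libraries labelled Ccna2-KO it held 67.9, 85.1, 90.7 and 47.6 CPM. The lowest of these was still more than the highest control, and Ccna2-KO replicate 4, of the low set, was the lowest. The means were 10.1 ± 5.75 and 72.8 ± 19.4 CPM (SD, n = 4 each), giving a log2 fold change of 2.85 ± 0.36 (SE; 95% interval 2.04 to 3.67; edgeR adjusted p = 0.00184). Of all genes tested, 0.623% had a higher log2 fold change. Rrm2 was 4.3-fold higher within the high set (1 control, 3 libraries labelled Ccna2-KO) and 6.55-fold higher within the low set (3 controls and 1), and the set-adjusted change was 2.42 ± 0.15 (edgeR adjusted p = 6.51e-05). The call held without any single library (edgeR adjusted p up to 0.00897).

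Rrm1 (chromosome 7, 102441695 to 102469771), the large subunit that holds the catalytic and regulatory sites, had 49.2, 19.0, 17.2 and 18.1 CPM in the controls. The libraries labelled Ccna2-KO had 74.2, 93.4, 88.6 and 57.2 CPM. The groups did not overlap, but control replicate 1 lay much nearer to the other group than the remaining controls did. The log2 fold change was 1.60 ± 0.35 (edgeR adjusted p = 0.0178) and the set-adjusted one 1.22 ± 0.17 (edgeR adjusted p = 0.00174). Rrm1 was 1.73-fold higher within the high set and 3.16-fold higher within the low set. Its call ended without any 1 of control replicates 2, 3 and 4 or Ccna2-KO replicates 2 and 3 (edgeR adjusted p 0.0512 to 0.0554).

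Rrm2b (chromosome 15, 37923952 to 37961119), the small subunit that quiescent cells use for repair and mitochondrial DNA, held 6.76, 8.02, 6.92 and 6.33 CPM in the controls. It held 7.41, 7.44, 6.55 and 7.02 CPM in the libraries labelled Ccna2-KO. All 8 values lay in one narrow range, and control replicate 1 did not stand apart. The log2 fold change was 0.02 ± 0.14 (95% interval -0.29 to 0.33; edgeR adjusted p = 0.947), and a change within that interval cannot be seen at this spread.

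The ratio of the small to the large subunit changed as well. The log2 ratio of Rrm2 to Rrm1 CPM was -1.39, -1.45, -1.23 and -1.28 in the controls and -0.13, -0.13, 0.03 and -0.26 in the libraries labelled Ccna2-KO. Control replicate 1, which was high for both genes, had a ratio within the range of the other controls, and Ccna2-KO replicate 4, the lowest of its group for both, had the ratio of its group. The ratio was 2.32-fold higher in the libraries labelled Ccna2-KO (log2 difference 1.21; exact two-sided permutation test p = 0.0286, the smallest that 4 against 4 can give; adjusted over 3 ratios 0.0286). With any 1 library left out the log2 difference lay between 1.16 and 1.26.

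Per kilobase of transcript, the order of the subunits differed between the groups. On this scale (CPM per kb, or RPKM) Rrm2 lay below Rrm1 in each control: 8.74 against 12.6 in replicate 1 and 3.12 to 3.38 against 4.24 to 4.69 in replicates 2 to 4. In each library labelled Ccna2-KO it lay above Rrm1, at 31.4 against 18.8, 39.4 against 23.7, 42.1 against 22.6 and 21.5 against 14.1 RPKM. The log2 ratio of Rrm2 to Rrm2b CPM, the alternative small subunits, was 1.46, -0.21, 0.07 and 0.23 in the controls and 3.18, 3.51, 3.78 and 2.75 in the others. That ratio was 7.54-fold higher in the libraries labelled Ccna2-KO (exact permutation p = 0.0286, adjusted over 3 ratios 0.0286). Rrm2b hardly differed between the groups, so this ratio largely repeats the 7.22-fold change of Rrm2 and is no separate result.

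**Figure D2:**
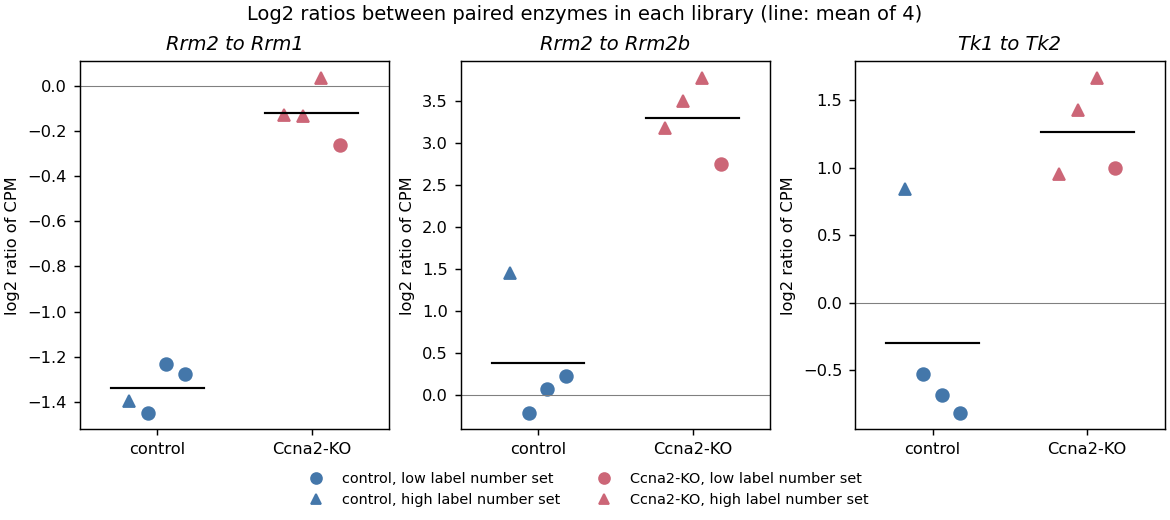
Log2 ratio of CPM (vertical axis) of Rrm2 to Rrm1, Rrm2 to Rrm2b and Tk1 to Tk2 in each library; symbols mark the label number set and the line is the mean of 4. For Rrm2 to Rrm1 all controls lie between -1.45 and -1.23 and all those labelled Ccna2-KO between -0.26 and 0.03, while control replicate 1 lies apart from the other controls in the remaining panels.

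The start regions of the 2 subunit genes that rose are shown because both hold a word of the E2F family, the factors that switch on S phase genes, and a CCAAT box. RefSeq windows (GRCm38.p6) of 250 bases before to 50 after the start were had for 8 members (10 windows in all). The words searched on both strands were TTCCCGC or TTCGCGC or TTGCCGC or TTGGCGC for E2F and CCAAT for the box, and these are in capitals below. The Rrm1 window is chr7:102441445-102441744 and the Rrm2 window chr12:24708004-24708303, both on the plus strand; that of Dck, the third gene that rose, is chr5:88764763-88765062, plus strand, and that of Tk1 chr11:117825965-117826264, minus strand.
Rrm1: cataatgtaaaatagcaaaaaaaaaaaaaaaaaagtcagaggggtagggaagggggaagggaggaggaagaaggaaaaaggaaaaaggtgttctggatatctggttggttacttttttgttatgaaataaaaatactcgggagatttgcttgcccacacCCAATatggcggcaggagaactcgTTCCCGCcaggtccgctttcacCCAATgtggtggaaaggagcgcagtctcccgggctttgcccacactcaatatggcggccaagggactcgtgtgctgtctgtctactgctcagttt
Rrm2: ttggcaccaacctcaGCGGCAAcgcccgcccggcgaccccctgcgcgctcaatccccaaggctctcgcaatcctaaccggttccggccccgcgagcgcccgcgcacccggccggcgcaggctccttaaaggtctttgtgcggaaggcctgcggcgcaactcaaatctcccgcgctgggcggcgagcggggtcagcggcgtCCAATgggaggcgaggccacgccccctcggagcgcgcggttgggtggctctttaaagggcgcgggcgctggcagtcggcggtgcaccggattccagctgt
Dck: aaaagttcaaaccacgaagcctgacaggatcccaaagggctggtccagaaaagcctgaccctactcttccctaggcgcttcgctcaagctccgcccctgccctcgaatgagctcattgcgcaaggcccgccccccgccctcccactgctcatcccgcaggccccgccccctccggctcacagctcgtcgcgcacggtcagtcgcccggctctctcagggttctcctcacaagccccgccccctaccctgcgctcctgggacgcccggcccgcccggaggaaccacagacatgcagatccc
Tk1: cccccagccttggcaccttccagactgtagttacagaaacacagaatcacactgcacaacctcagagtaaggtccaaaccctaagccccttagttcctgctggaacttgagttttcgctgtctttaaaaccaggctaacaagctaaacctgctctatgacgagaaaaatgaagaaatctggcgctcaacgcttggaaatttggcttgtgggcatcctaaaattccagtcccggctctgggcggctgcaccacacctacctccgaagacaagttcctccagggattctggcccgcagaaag
Rrm1 held TTCCCGC at -67 to -61 and CCAAT at -91 to -87 and -45 to -41 relative to its start. Rrm2 held TTGCCGC on the minus strand at -235 to -229 and CCAAT at -50 to -46. An E2F word was in 9.57% of 32841 RefSeq windows of this length, CCAAT in 37.4% and both in 3.66%. Among the 8 members, 2 held both, Rrm1 and Rrm2; Dctd held CCAAT alone, in 2 of its windows that overlap, and Tk1, Tyms, Dck, Dut and Samhd1 held neither word in these windows. The word TTTGAA or TTCGAA, a cell cycle homology region, was in 19.2% of windows and among the members in Dck, as TTTGAA. The Dut window, chr2:125247265-125247564 on the plus strand, lay wholly inside the gene span given below, so no bases before that span were searched. These matches describe letters in a window and say nothing of binding.

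The thymidine enzymes were higher on average in the libraries labelled Ccna2-KO, but control replicate 1 had levels of that group and the genes did not pass the test. Tk1 (chromosome 11, 117815519 to 117826087), the S phase thymidine kinase of the cytosol, held 35.4, 12.2, 10.4 and 9.97 CPM in the controls. It held 36.7, 49.0, 49.5 and 29.7 CPM in the Ccna2-KO-labelled group. The log2 fold change was 1.28 ± 0.41 (edgeR adjusted p = 0.0731). Tk1 passed in the set-adjusted fit (0.89 ± 0.22; edgeR adjusted p = 0.0225), with limma voom (1.49, adjusted p = 0.0271), with DESeq2 (1.29, adjusted p = 0.0106) and without control replicate 1 (1.93; edgeR adjusted p = 0.000215). Tk1 did not pass with a term for the replicate number (edgeR adjusted p = 0.0591) or with other scalings and low-count filters. Nor did it pass without any single library other than control replicate 1 (edgeR adjusted p 0.0805 to 0.172). Tk2, the mitochondrial thymidine kinase, held 14.8 to 19.7 CPM over all libraries. The log2 ratio of Tk1 to Tk2 was 0.85, -0.53, -0.69 and -0.82 in the controls and 0.96, 1.43, 1.67 and 0.999 in the others (2.95-fold higher; exact permutation p = 0.0286, adjusted over 3 ratios 0.0286), with control replicate 1 just under the lowest of the other group.

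Tyms (chromosome 5, 30038546 to 30073645), thymidylate synthase, held 42.0, 16.0, 17.3 and 16.2 CPM in the controls and 35.8, 45.5, 43.7 and 28.7 CPM in the libraries labelled Ccna2-KO. Control replicate 1 exceeded 2 of the 4 libraries of the other group. The log2 fold change was 0.75 ± 0.32 (95% interval 0.03 to 1.47; edgeR adjusted p = 0.174). Within the high set, which holds a single control, the fold was 0.986, and within the low set, which holds a single Ccna2-KO replicate, it was 1.74. The set-adjusted change was 0.39 ± 0.16 (edgeR adjusted p = 0.128), and without control replicate 1 it was 1.22 (edgeR adjusted p = 0.000651). The pseudogene Tyms-ps held 0 to 3 counts per library, and how many reads it shares with Tyms was not tested.

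Dut (chromosome 2, 125247248 to 125259049), which cleaves dUTP and so keeps uracil out of DNA, and Dctd (chromosome 8, 48099092 to 48141667), deoxycytidylate deaminase, followed the pattern of Tyms. Dut held 26.0, 7.82, 8.33 and 10.4 CPM in the controls and 24.0, 30.6, 28.5 and 16.6 CPM in the others (log2 fold change 0.93 ± 0.38; edgeR adjusted p = 0.16). Dctd, the gene with the fewest counts of the 9 (26 to 156 per library), held 3.55, 1.04, 1.17 and 1.64 CPM in the controls and 3.10, 4.68, 4.46 and 2.31 CPM in the others (0.98 ± 0.41; edgeR adjusted p = 0.165). For both genes control replicate 1 lay above the lowest 2 libraries of the other group. Within the high set Dut was 1.06-fold and Dctd 1.13-fold higher, and within the low set 1.88-fold and 1.8-fold higher. Set-adjusted, the changes were 0.49 ± 0.18 and 0.50 ± 0.26 (edgeR adjusted p = 0.0924 and 0.21), and without control replicate 1 they were 1.49 and 1.5 (edgeR adjusted p = 0.0012 and 0.00582).

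Dck (chromosome 5, 88765013 to 88783277), deoxycytidine kinase of the salvage pathway, rose by a smaller amount and with little spread. It held 14.5, 13.3, 11.5 and 14.1 CPM in the controls and 19.9, 22.5, 22.6 and 17.3 CPM in the libraries labelled Ccna2-KO, with no overlap. Control replicate 1 was within 1 CPM of another control, unlike for the 6 genes of synthesis and thymidine salvage above. The log2 fold change was 0.63 ± 0.13 (1.54-fold; edgeR adjusted p = 0.015), with 1.49-fold within the high set, 1.34-fold within the low set and 0.50 ± 0.12 set-adjusted (edgeR adjusted p = 0.0202). The call ended without Ccna2-KO replicate 2 or 3 (edgeR adjusted p = 0.0531 and 0.0557).

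Samhd1 (chromosome 2, 157097534 to 157135096), the dNTP hydrolase, had the highest level of the 9 genes per kilobase in the controls and was the only one with a negative log2 fold change. It held 55.6, 125.7, 82.9 and 56.9 CPM in the controls and 60.1, 57.5, 57.8 and 66.1 CPM in the libraries labelled Ccna2-KO. Control replicates 2 and 3 were above all other libraries, and control replicates 1 and 4 were slightly below the whole other group. The log2 fold change was -0.41 ± 0.24 (95% interval -0.95 to 0.13; edgeR adjusted p = 0.323), and -0.17 ± 0.26 set-adjusted. It was -0.11 without control replicate 2, the library with the most Samhd1, and -0.55 without control replicate 1, with no call in either (edgeR adjusted p = 0.737 and 0.101).

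Samhd1 is also strongly expressed in leukocytes, and general leukocyte and T cell markers were lower in the Ccna2-KO-labelled group. All 5 leukocyte markers fell, and their summed level was 35.3, 115.8, 93.5 and 53.3 CPM in the controls and 15.2 to 24.3 CPM in the others. Ptprc, which encodes the leukocyte antigen CD45, held 7.07, 38.7, 37.2 and 18.8 CPM in the controls and 2.19 to 5.45 CPM in the others. All 7 T cell markers tested fell too (21.7 to 95.5 against 5.70 to 11.3 CPM summed), and none of these markers was at 0 in all libraries. Of 5 macrophage markers 0 fell and 1 rose, Cd68 (1.13 ± 0.28; edgeR adjusted p = 0.0313), and they summed to 5.09 to 13.7 CPM in the controls and 8.22 to 10.7 CPM in the others. The 1 B cell marker tested, Ms4a1, had a log2 fold change of -0.05 ± 0.31. Set-adjusted, 5 of the 7 T cell markers and 4 of the 5 leukocyte markers fell, and 0 of the macrophage markers passed. The libraries with the most leukocyte marker RNA, control replicates 2 and 3, were those with the most Samhd1; the part of leukocytes in the Samhd1 level was not tested. In bulk RNA, fewer cells of a type and less RNA per cell cannot be told apart.

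**Figure D3:**
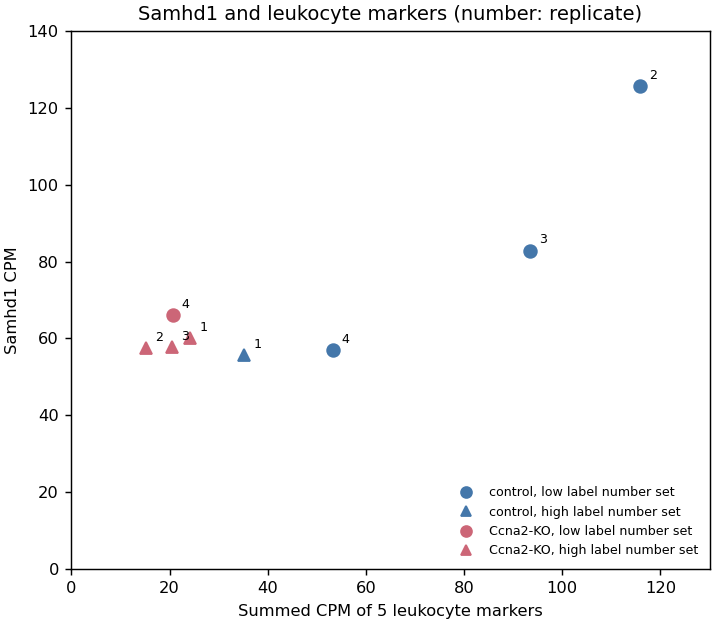
Samhd1 level in CPM (vertical axis) against the summed CPM of the 5 leukocyte markers Ptprc, Coro1a, Laptm5, Lcp1 and Rac2 (horizontal axis) in each of the 8 libraries, labelled by replicate. Control replicates 2 and 3 lie highest on both axes, at 125.7 and 82.9 CPM of Samhd1, and the other 6 libraries lie between 55.6 and 66.1 CPM.

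**Figure D4:**
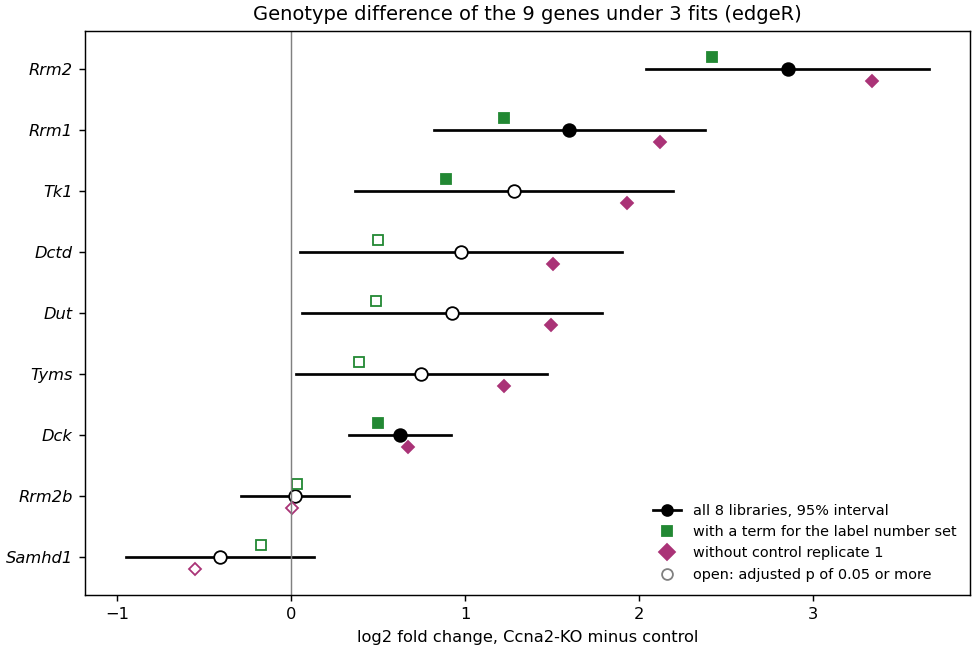
Log2 fold change of each gene (horizontal axis, Ccna2-KO minus control) from edgeR with all 8 libraries and its 95% interval (black), with a term for the label number set (green) and without control replicate 1 (purple); filled symbols have an adjusted p under 0.05. Rrm2, Rrm1 and Dck are filled in all 3 fits, at 2.85, 1.60 and 0.63 with all libraries, and Rrm2b and Samhd1 are open in all 3.

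The genes were next set against the replication machinery of the same library, since control replicate 1 and the libraries labelled Ccna2-KO both held more RNA of replication genes. For each library the mean log2 CPM of Mcm2 to Mcm7, the replicative helicase, and Pcna, the sliding clamp, was subtracted. That mean was 0.89 higher (log2) in the libraries labelled Ccna2-KO. Relative to it Rrm2 was at -1.44, -1.28, -1.17 and -1.36 in the controls and at 0.68, 0.67, 0.88 and 0.70 in the libraries labelled Ccna2-KO. Control replicate 1 was thus the lowest of all controls on this scale. The relative difference was 2.05 ± 0.33 (SE; limma adjusted p = 0.00283), and Rrm2 was the 1 gene of the 9 called, against 6.93% of all genes on this scale (0.617% higher and 6.32% lower). Without single libraries it lay between 2 and 2.10.

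Relative to the replication genes, Rrm1 was at -0.05, 0.16, 0.06 and -0.09 in the controls and at 0.81, 0.80, 0.85 and 0.97 in the others. Its difference of 0.84 ± 0.35 did not pass (limma adjusted p = 0.101) although the groups did not overlap. Set-adjusted, the difference was 0.90 ± 0.18 (limma adjusted p = 0.00987, with 13.5% of all genes called in that fit). In these fits limma draws the spread of each gene towards that of genes at similar levels. For Rrm1 the SE of 0.35 was larger than the range of its values within either group. The relative groups did not overlap for 4 of the 9 genes (Rrm1, Rrm2, Tk1 and Dut) and for 12.7% of all genes. Tk1 was at -0.94 to -0.48 in the controls and -0.20 to 0.02 in the others, and Dut at -1.11 to -0.88 and -0.82 to -0.79. Tyms had no relative difference beyond its error (-0.03 ± 0.33; limma adjusted p = 0.934), and its values in all 8 libraries lay between -0.28 and 0.07. Rrm2b (-0.87 ± 0.42; limma adjusted p = 0.127) and Samhd1 (-1.22 ± 0.54; limma adjusted p = 0.11) were lower on this scale without passing. A gene unchanged in CPM falls on this scale by the 0.89 that the replication mean rose. Rrm2b, with a log2 fold change of 0.02 in CPM, lay close to that. Without control replicate 1, 6 of the 9 genes were called on this scale, but so were 87.1% of all genes.

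**Figure D5:**
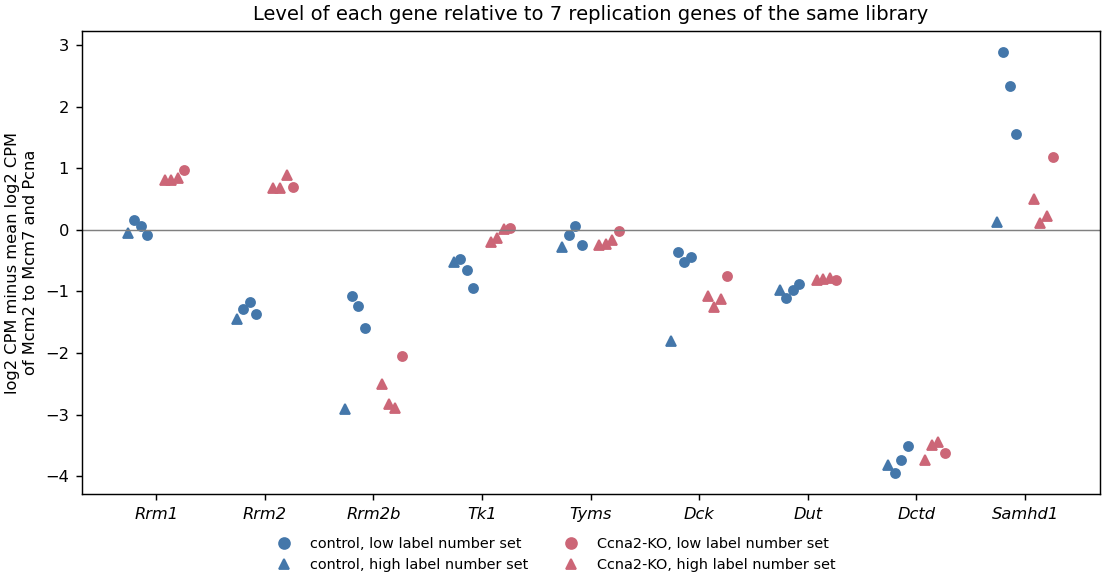
Level of each gene as log2 CPM minus the mean log2 CPM of Mcm2 to Mcm7 and Pcna in the same library (vertical axis); points are single libraries, coloured by group, with the label number set as symbol. Rrm2 moves from between -1.44 and -1.17 in the controls to 0.67 to 0.88 in those labelled Ccna2-KO, while Tyms stays between -0.28 and 0.07.

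Per kilobase, the 9 genes spanned a wide range of levels. In the controls Samhd1 averaged 33.6 ± 13.2 RPKM (SD, n = 4), Dut 11.2 ± 7.28, Tk1 10.4 ± 8.87, Tyms 6.73 ± 4.02, Rrm1 6.52 ± 4.07, Rrm2 4.63 ± 2.74, Dck 4.33 ± 0.49, Dctd 1.36 ± 0.39 and Rrm2b 1.09 ± 0.32 RPKM. From Dut to Dck, neighbours in this order differed by less than their SD, which control replicate 1 widens, and so did Dctd and Rrm2b. In the libraries labelled Ccna2-KO the order was Rrm2 at 33.6 ± 9.27, Tk1 at 26.9 ± 6.88, Samhd1 at 25.2 ± 1.98, Dut at 19.9 ± 5.16, Rrm1 at 19.8 ± 4.31, Tyms at 11.6 ± 2.50, Dck at 6.75 ± 0.90, Dctd at 2.45 ± 1.02 and Rrm2b at 1.03 ± 0.11 RPKM. Rrm2, sixth among the controls, was thus first here, although the neighbours Rrm2 and Tk1, and Tk1 and Samhd1, differed by less than their SDs. Lengths came from GENCODE transcripts matched to the RefSeq identifiers, which covered 68.1% (Rrm2b) to 100% of a gene's counts.

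Counts of single transcripts gave less precision. The 9 genes had 28 annotated transcripts, of which 23 passed the filter and 1 was called, the single Rrm2 transcript NM_009104.2 (log2 fold change 2.86 ± 0.41; edgeR adjusted p = 0.032, against 0.93% of 38384 transcripts called). That call ended with any 1 library left out except control replicate 1 or Ccna2-KO replicate 4. Rrm1, Rrm2 and Dck had 1 transcript each. Of Dut, NM_001159646.1 held 67.3%, 81.9%, 69.97% and 72.1% of the counts in the controls and 49.0%, 63.0%, 60.5% and 68.1% in the others, the rest being NM_023595.6 (exact two-sided permutation test p = 0.0571; adjusted over 6 genes 0.257). The main Tk1 transcript, NM_009387.2, held 89.4%, 72.8%, 43.1% and 51.7% in the controls and 83.5% to 89.7% in the others (exact p = 0.0857; adjusted 0.257). Of Samhd1, NM_001139520.1 held 67.0% to 72.8% and 60.4% to 72.7% (exact p = 0.4; adjusted 0.6). None of the 6 genes with more than 1 transcript of at least 5% of its counts passed, and kallisto's division of reads between overlapping transcripts limits each of these shares.

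The genes whose profile over the 8 libraries was most like that of a member were found by the mean absolute difference of log2 CPM, each gene centred on its own mean, among 11838 genes. For Rrm2 these were 2810417H13Rik (difference 0.11), now named Pclaf, a partner of Pcna, then E2f7 (0.121) and Sh3tc2 (0.207). For Rrm1 they were Ncapg2 (0.0619), a condensin II subunit, Ska1 (0.0714), of the spindle and kinetochore, and Fanci (0.0784), of the Fanconi anaemia pathway. For Tk1 they were the mitotic kinase gene Aurkb (0.0296), Shcbp1 (0.0578) and Cdk1 (0.0612). The nearest to Tyms was Dtymk (0.058), the kinase that acts on the product of Tyms, followed by Shmt2 (0.0701), of mitochondrial one-carbon metabolism, and Hmgb2 (0.0712). Rrm2b was nearest to Mitd1 (0.0327), Cnih4 and Map2k7, and Samhd1 to Tnfrsf14 (0.091), Vps37b and Wrn. Among the members themselves, Dut and Dctd were the closest pair (0.0844) and Rrm2 and Samhd1 the most distant (1.63).

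Most other genes of the nucleotide pathway did not pass the test, and neither did most genes of the whole table. Beside the counts of each list below, 6.4% of all genes rose and 5.71% fell. Set-adjusted, 9.29% of all genes rose and 8.9% fell. Of 13 other deoxynucleoside and nucleotide kinases 0 passed in edgeR's test (median log2 fold change 0.23), and of 7 enzymes that clear damaged or excess nucleotides 0 passed (median 0.16). At an unadjusted p under 0.05, 1 gene of each list was higher in edgeR's test, DESeq2 called 1 of each, and limma voom called 0 and 1. The thymidine monophosphate kinase Dtymk, at 0.72 ± 0.34 (edgeR adjusted p = 0.218), was among those that did not pass. Without control replicate 1, 4 of these kinases and 5 of the clearing enzymes rose, in a fit that called 28.5% of all genes (15.1% higher). Leaving out any other single library gave 0 of either list, in fits that called 6.05% to 10.6% of all genes. Set-adjusted, 1 kinase gene rose (Cmpk2, 0.97) and 1 fell (Dguok, -0.51) and 0 of the clearing enzymes passed in edgeR's test, and both medians turned negative (-0.12 and -0.05).

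In the thymidylate and folate list 1 of 9 rose (median 0.18): Mthfd2, of the mitochondrial folate cycle, from 7.19 to 16.8 CPM (1.23 ± 0.31; edgeR adjusted p = 0.0324). In pyrimidine synthesis 1 of 5 rose (median 0.04), Ctps, which makes CTP (0.92 ± 0.20; edgeR adjusted p = 0.0179). In purine synthesis 1 of 12 tested rose (median 0.13), Adss, on the way to AMP (0.64 ± 0.08; edgeR adjusted p = 0.00201). Without control replicate 1, 4 folate genes, 2 pyrimidine genes and 2 purine genes rose and 1 pyrimidine gene fell. In that fit 15.1% of all genes rose, against 6.4% with all libraries and 9.29% set-adjusted. Set-adjusted, 1 folate gene rose (median 0.02), 1 pyrimidine gene rose and 2 fell (Ctps2, -0.75, and Umps, -0.45; median -0.26), and 1 purine gene rose and 1 fell (median 0.01). With single libraries left out, the Mthfd2 call held only without control replicate 1 or Ccna2-KO replicate 4, and the Ctps call ended without control replicate 3 or Ccna2-KO replicate 2 or 3, while the Adss call held without any single library.

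Of 18 genes of breakdown and salvage 1 rose and 2 fell (median -0.03). Dpyd, which starts pyrimidine breakdown, fell from 52.7 ± 17.4 to 19.4 ± 1.67 CPM (log2 fold change -1.44 ± 0.24; edgeR adjusted p = 0.00615). Adk, adenosine kinase (-0.46 ± 0.11; edgeR adjusted p = 0.0224), fell and Aprt, of adenine salvage (0.44 ± 0.11; edgeR adjusted p = 0.0308), rose by small amounts, and both calls held only when control replicate 1 or Ccna2-KO replicate 4 was the library left out. Of 8 nucleoside and nucleotide transporters 1 fell (median 0.04), the concentrative nucleoside transporter Slc28a2, from 5.54 ± 2.57 to 0.66 ± 0.26 CPM (-3.08 ± 0.45; edgeR adjusted p = 0.00354). The Dpyd and Slc28a2 calls held without any single library. Leukocyte and T cell markers fell too, and which cells held the Slc28a2 RNA was not tested. Without control replicate 1, 4 breakdown and salvage genes rose and 2 fell, and 3 transporters rose and 2 fell. That fit called 28.5% of all genes, against 12.1% with all libraries and 18.2% set-adjusted. Set-adjusted, 1 breakdown and salvage gene rose and 3 fell (median -0.07), and 1 transporter rose and 1 fell (median -0.03).

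Among 10 regulators and electron donors of ribonucleotide reductase 3 rose and 0 fell (median 0.31). E2f7 and E2f8, repressors of E2F target genes such as those of S phase, rose by 2.92 ± 0.31 and 1.26 ± 0.21 (edgeR adjusted p = 0.000822 and 0.00566). Ccnf, which encodes cyclin F, the receptor through which the Rrm2 protein is degraded in G2, rose from 5.71 ± 3.59 to 22.6 ± 6.05 CPM (1.99 ± 0.39; edgeR adjusted p = 0.0113). These 3 calls held without any single library, and 3 rose set-adjusted (median 0.20), while 5 of the list rose without control replicate 1. Over all genes 6.4% rose with all libraries, 9.29% set-adjusted and 15.1% without control replicate 1. E2f1 (0.53 ± 0.41), Trp53 (0.20 ± 0.15), the thioredoxin genes Txn1 (0.33 ± 0.19) and Txnrd1 (0.29 ± 0.15), and Glrx (-0.16 ± 0.11) did not pass (edgeR adjusted p 0.266 to 0.459).

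For comparison, of 26 DNA replication genes 5 rose and 0 fell (median 0.81, set-adjusted 0.40), and without control replicate 1 all 26 rose. Without any 1 of the other 7 libraries, 1 to 4 rose. Over all genes 6.4% rose with all libraries, 15.1% without control replicate 1 and 3.56% to 5.82% without any other single library. Pola2, of DNA polymerase alpha, rose by 0.80 ± 0.11 (edgeR adjusted p = 0.00241), and Pole, of the leading strand polymerase, by 1.48 ± 0.37 (edgeR adjusted p = 0.033). Cdc6 and Cdc45, of origin licensing and firing, rose by 1.07 ± 0.24 and 1.41 ± 0.38 (edgeR adjusted p = 0.0207 and 0.0419). Of these 4, Pola2 kept its call without any single library. Pcna had a log2 fold change of 0.34 ± 0.19 (edgeR adjusted p = 0.293). Mki67, present in cycling cells, held 135.1, 88.6, 75.3 and 86.5 CPM in the controls and 241.1, 310.1, 329.2 and 252.1 CPM in the libraries labelled Ccna2-KO (1.55 ± 0.20; edgeR adjusted p = 0.00182).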

How the data were processed

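The authors deposited unnormalised estimated counts per RefSeq transcript for 8 RNA-seq libraries, 4 per group; the submitters' processing notes name kallisto, without a version, and the build GRCm38 (mm10). The sources used here do not give the strandedness. Of 107193 transcripts, 687 carried no symbol (3.19% to 5.51% of counts) and were left out. Counts were summed per symbol and rounded.

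Genotype was tested with edgeR 4.0.16 in R 4.3.3 (default low-count filter, TMM scaling, robust quasi-likelihood F test, no covariate), with p-values adjusted by Benjamini and Hochberg over all 15893 genes kept and a threshold of 0.05. Log2 CPM used a prior count of 2. Levels relative to replication genes were tested with limma 3.58.1 over all genes, and single transcripts with edgeR over all transcripts. Ratios and transcript shares were compared by exact permutation. The fits were run on simulated counts with known changes, drawn without an effect of the label number set and without a deviating control library. How the fits deal with those features was not tested. Library pairs within a group all differed by more than sampling noise. Groups and replicate numbers came from the labels.

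The members, lists and tests were chosen with earlier results of these data known. Genes were named by rule: the members, Ccna2, Mki67, Pcna, Ptprc and Epcam, up to 4 passing genes per list with the smallest adjusted p, and the 3 nearest profiles of 6 members. Dtymk, E2f1, Trp53, Txn1, Txnrd1 and Glrx, which did not pass, and Cmpk2, Dguok, Ctps2, Umps, Cd68 and Ms4a1 were named after their values were seen. Alternatives were other scalings and filters, DESeq2 1.42.0, limma voom, non-robust estimates, a replicate block, the label number set and leaving out each library. List counts with other tools, and list counts and non-member genes with libraries left out, were added after seeing the data.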

Additional observations from a re-analysis of the deposited data

Results flagged for a closer look

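In 54 groups of 4 libraries, the gap of the highest or lowest library to its nearest neighbour, over the range of the group, was compared with Dixon's 95% critical value, which chance exceeds in about 1 group in 20. It was exceeded in 7 groups, and in 6 of them the library was control replicate 1. Its log2 CPM was 5.62 for Rrm1 (other controls 4.11 to 4.26), 4.23 for Rrm2 (2.81 to 2.90), 5.15 for Tk1 (3.33 to 3.61) and 5.40 for Tyms (4.01 to 4.12). Its log2 ratio of Tk1 to Tk2 was 0.846 (other controls -0.816 to -0.533), and its Dck level relative to replication genes was -1.81 (-0.52 to -0.354). The seventh was Ccna2-KO replicate 3, whose Rrm2 level relative to replication genes was 0.882 against 0.672 to 0.703 in the rest of its group. These values share libraries and genes and are not independent.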

How the results depend on the processing

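The calls of Rrm2, Rrm1 and Dck held under RLE, upper quartile and plain library-total scaling, without and with a stricter low-count filter, with DESeq2, limma voom and non-robust estimates. With 1 library left out, 1 to 7 of the 9 genes passed, 972 to 4627 of all genes, 1 to 6 of the 9 relative to replication genes, and 0 to 5 of their transcripts; the highest number came without control replicate 1 in each case. All genes called numbered 1924 in the reported test, 2949 with DESeq2 and 2892 with the label number set term, which also gave 2 of 9 genes relative to replication genes. The change of Ccna2 lay between -0.58 and 0.24 with 1 library left out, positive without control replicate 1 alone, at 0.24. Sign changes among small values were Rrm2b without control replicate 4 (-0.0267, with 0.0892 the highest without 1 library) and, relative to replication genes, Tyms with the set term (0.0632) and without control replicate 3 (0.0355, with -0.0801 the lowest) and Dck with the set term (0.17). The cause of these changes was not tested.

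The replicate number did not pair the libraries: correlations of same-numbered deviations ran from -0.35 to 0.15. With the replicate block 987 genes were called, Dck was lost (0.62; edgeR adjusted p = 0.0768), Rrm1 and Rrm2 passed, and edgeR called 0 of 38384 transcripts (at an unadjusted p under 0.05, 1822 were higher and 1495 lower, 5 and 0 of them from the 9 genes). Without the block limma voom called 1 transcript of the 9 genes. Dctd had the fewest counts of the 9 genes, 26 to 156 per library.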
